A study of Mus musculus with 26 samples.

Results

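The genes that write, copy and erase cytosine methylation were followed through the RNA-seq libraries of a study of Prdm14 and its corepressor Mtgr1 in mouse embryonic stem cells (mESCs). The set holds 9 of the 24015 genes of the deposited RPKM tables (read counts scaled by gene length and by the reads of the library) and was taken by gene symbol: Dnmt1, Dnmt3a, Dnmt3b, Dnmt3l, Uhrf1, Tet1, Tet2, Tet3 and Tdg. Every one of them was found in all 15 libraries. All 9 passed the filter on low values (2 or more libraries with 1 RPKM or more), which left 13477 genes for the tests.

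The study asked what Prdm14 and Mtgr1 do for pluripotency and germ cell formation, by removing either protein and putting it back. All lines came from Stella:GFP mESCs, which carry a green reporter of the germ cell gene Stella, and were kept in 2i+LIF, a serum-free medium with inhibitors of MEK and GSK3β. The 7 conditions were wt cells in 2i+LIF (2 libraries), wt cells after 5 days in serum+LIF (1 library), and 5 kinds of mutant or rescued line, all after 5 days in serum+LIF. These were Prdm14-/- cells (clones G6 and F10), both clones with FLAG-HA-tagged Prdm14 added (FH-Prdm14), both clones with the tagged E294K mutant of Prdm14 added (E294K), 3 clones of Mtgr1-/- cells named A3, C1 and C3, and those clones with tagged Mtgr1 added (FH-Mtgr1). The knockouts were made with CRISPR-Cas9 and each knockout line grew from a single cell, so that the libraries of a knockout are clones. The rescue lines were made from these clones by adding cDNA. Values of the Prdm14 lines are given in the order G6 and F10, and those of the Mtgr1 lines in the order A3, C1 and C3. The E294K substitution lies in the surface with which Prdm14 holds Mtgr1. With 1 wt serum+LIF library, comparisons with it borrow their error from the conditions that have replicates, and all p-values measure only the spread between these libraries.

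Methylation of cytosine in CpG pairs is laid down on bare DNA by Dnmt3a and Dnmt3b, with the catalytically inactive Dnmt3l as their cofactor. It is copied after replication by Dnmt1, which Uhrf1 brings to half-methylated sites. The Tet enzymes oxidise methylcytosine, and the glycosylase Tdg cuts out the most oxidised forms so that repair puts back a plain cytosine. mESCs in 2i+LIF are known for low methylation and mESCs in serum for high methylation, and Prdm14 is known as a repressor of the de novo methyltransferases.

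Counted reads ran from 10668572 to 21218414 per library (median 13793727). Prdm14 itself was at 1.96 and 3.60 RPKM in the Prdm14-/- libraries, whose small insertions or deletions leave a transcript, at 2.77 in wt serum+LIF, and at 79.9 to 116 in the FH-Prdm14 and E294K libraries. The rescues therefore held more Prdm14 RNA than the wt libraries in either medium (19.1 and 30.8 in 2i+LIF). Cbfa2t2, the gene of Mtgr1, was at 18 to 19.9 RPKM in Mtgr1-/- and at 25.5 to 28 in FH-Mtgr1 cells. The 5 pluripotency markers added up to 1167 to 2033 RPKM in every library. RNA of the Y-linked genes did not follow the clone names: Ddx3y was at 0.0104 RPKM in Mtgr1-/- A3 and at 0.0406 in FH-Mtgr1 C1, against 4.18 to 11.1 in the other 4 libraries of the Mtgr1 lines. The tests of members in the Mtgr1 lines were therefore repeated without those 2 libraries. The Prdm14 lines varied too, in the sum of Xist and the Y-linked Ddx3y, Eif2s3y, Kdm5d and Uty. It was 2.02 RPKM in Prdm14-/- G6, 5.57 in FH-Prdm14 G6 and 14.8 in E294K G6. The F10 libraries of these conditions held 17.7, 6.11 and 16.9 RPKM. No Prdm14 library was left out on this ground, beyond leaving out each library in turn. The wt 2i+LIF pair was the least alike of the replicate pairs, with a chi-square of 69.2 per degree of freedom over genes, against 3.42 for the E294K pair. Mtgr1-/- C3 stood apart from A3 and C1 (46.9 and 42.8, against 6.99 between A3 and C1).

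Among the de novo enzymes, Dnmt3b varied most. Its level was 149.5 RPKM in wt serum+LIF and 11.7 and 4.71 in 2i+LIF. The Prdm14-/- libraries held 131 and 81.4 RPKM in clones G6 and F10, FH-Prdm14 22.8 and 16.6, and E294K 182 and 198. Mtgr1-/- A3, C1 and C3 had 250.2, 245 and 279 RPKM, and FH-Mtgr1 A3, C1 and C3 had 116, 107 and 74.8. The FH-Prdm14 libraries thus lay nearest to the 2i+LIF cells, and all 3 Mtgr1-/- libraries lay above the other 12. The highest and lowest libraries were 59.2-fold apart. The standard deviation of log2(RPKM + 0.5) over the 15 libraries was 1.78 for Dnmt3b against a median of 0.441 for the tested genes, and 48 of the 13477 tested genes had a higher one. In the order of the condition means, Mtgr1-/-, E294K, wt serum+LIF, Prdm14-/- and FH-Mtgr1 followed each other without a step past the threshold. FH-Mtgr1 was above FH-Prdm14 (adjusted p = 0.000202) and FH-Prdm14 above 2i+LIF (adjusted p = 0.0158).

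Dnmt3a, the other de novo enzyme, was lower and less variable. It was at 29.0 RPKM in wt serum+LIF, at 7.40 and 6.88 in 2i+LIF, at 15.0 and 17.7 in Prdm14-/- G6 and F10, at 10.8 and 10.0 in FH-Prdm14, and at 31.7 and 34.4 in E294K. The Mtgr1 lines lay in between, at 19.3, 22.3 and 20.7 RPKM in Mtgr1-/- and at 20.3, 23.4 and 18.6 in FH-Mtgr1, ranges that overlap. Dnmt3l, the cofactor, was at 152 RPKM in wt serum+LIF, 49.5 and 40.2 in 2i+LIF, 87.4 and 81.0 in Prdm14-/-, 53.1 and 49.7 in FH-Prdm14 and 169 and 140.2 in E294K. In the Mtgr1 lines Dnmt3l was at 53.8, 78.9 and 59.97 RPKM in the knockout and at 93.3, 88.0 and 102 in the rescue. The knockout libraries were thus the lower ones for Dnmt3l and the higher ones for Dnmt3b. Over the 15 libraries, which share media and genotypes, Dnmt3a ran with Dnmt3b (r = 0.894) and with Dnmt3l (r = 0.858), and Dnmt3b with Dnmt3l less closely (r = 0.633).

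The 100 bases before a RefSeq start site of each of these genes (GRCm38.p6) are printed. Where a gene has several starts, the one with the most CpG in the 250 bases before it was taken. The stretches show how unlike the CpG content of these starts is among genes that rose and fell together in several comparisons. Which start the cells use was not tested. Capitals mark each CG.
Dnmt3a: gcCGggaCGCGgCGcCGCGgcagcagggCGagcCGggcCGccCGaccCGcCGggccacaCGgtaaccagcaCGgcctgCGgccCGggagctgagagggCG
Dnmt3b: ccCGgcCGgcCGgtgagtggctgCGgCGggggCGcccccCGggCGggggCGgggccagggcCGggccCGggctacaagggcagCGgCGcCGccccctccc
Dnmt3l: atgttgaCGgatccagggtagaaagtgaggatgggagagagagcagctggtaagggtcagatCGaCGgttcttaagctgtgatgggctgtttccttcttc
They lie at chr12:3807060-3807159, chr2:153649349-153649448 and chr10:78042187-78042286, all on the plus strand, and hold 17, 14 and 3 CpG. Over the 250 bases before the start, the Dnmt3b window had 21 CpG, a number that 16.3% of all 32851 RefSeq windows reach or pass. The 3 Dnmt3a starts had 15 to 40, and the 3 Dnmt3l starts 3 to 5, against a median of 6.0 over all windows.

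The copying machinery moved less. Dnmt1 was at 71.5 RPKM in wt serum+LIF, 81.6 and 101 in 2i+LIF, 60.2 and 51.3 in Prdm14-/-, 76 and 74.8 in FH-Prdm14, and 87.6 and 88.4 in E294K. In the Mtgr1 lines it was at 76.8, 81.6 and 67.9 RPKM in the knockout and at 43.4, 44.0 and 34.7 in the rescue, so that the 3 rescue libraries were the lowest of the 15. In the order of means, the step from Prdm14-/- down to FH-Mtgr1 passed the threshold (adjusted p = 0.0272, in a comparison where 39.5% of all tested genes passed). Uhrf1, the partner that reads half-methylated DNA, was at 158 RPKM in wt serum+LIF, 262 and 275 in 2i+LIF, 112 and 103 in Prdm14-/-, 113 and 113 in FH-Prdm14, and 168 and 164 in E294K. Its values in the Mtgr1 lines overlapped, at 123, 135 and 130.4 RPKM without and 129.7, 118 and 119.8 with Mtgr1 added back. Uhrf1 was highest in 2i+LIF, above E294K as the next condition (adjusted p = 0.000837, with 30.7% of all tested genes past the threshold). Of the Uhrf1 transcript of NCBIM37, 71.9% is matched by another place of the genome at 97% identity or more, so that its reads may have been shared or lost. For Dnmt3b this was 15.7%, and for Dnmt1, Dnmt3a, Dnmt3l and the Tet genes 0.

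Tet1 was the most abundant of the oxidising enzymes. It was at 59.8 RPKM in wt serum+LIF, 36.6 and 37.6 in 2i+LIF, 15.4 and 20.3 in Prdm14-/-, 47.4 and 48.3 in FH-Prdm14, and 57.9 and 64.8 in E294K. All 6 libraries of the Mtgr1 lines were in the low range, at 25.9, 25.6 and 16.1 RPKM in Mtgr1-/- and 19, 23.8 and 21.8 in FH-Mtgr1. The 8 libraries of Prdm14-/-, Mtgr1-/- and FH-Mtgr1 cells thus all lay below the other 7. Tet2, which lacks the CXXC domain of its relatives, was at 17.8 RPKM in wt serum+LIF, 24.5 and 9.0 in 2i+LIF, 2.86 and 4.40 in Prdm14-/-, 9.40 and 12.1 in FH-Prdm14, and 19.6 and 19.7 in E294K. Mtgr1-/- A3, C1 and C3 held 3.73, 4.04 and 1.77 RPKM of Tet2, and FH-Mtgr1 6.29, 6.36 and 6.89. The knockouts were the lowest 5 libraries, and the 2i+LIF pair spread over most of the range. Tet2 ran with Tet1 over the 15 libraries (r = 0.866). No step between neighbours in the order of Tet2 means passed the threshold, and 742 of the tested genes had a higher standard deviation than its 1.04.

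Tet3, better known from the egg and from neural tissue, went the other way. It was at 3.0 RPKM in wt serum+LIF, 2.27 and 0.881 in 2i+LIF, 4.84 and 2.61 in Prdm14-/-, 1.90 and 1.76 in FH-Prdm14, and 2.33 and 2.23 in E294K. Mtgr1-/- cells held 6.56, 6.05 and 8.93 RPKM and FH-Mtgr1 cells 2.91, 3.63 and 3.46, so that the Mtgr1-/- libraries were the highest 3 of the 15. Over the libraries Tet3 ran against Tet2 (r = -0.704) and with Dnmt3b (r = 0.781). Tdg, the glycosylase, was listed at 0.392 RPKM in wt serum+LIF and at 0.581 to 1.24 elsewhere. These values stand for 20 to 82 reads, and 4 libraries reached an RPKM of 1. Other places of the genome match 86.4% of the 3502-base Tdg transcript at 97% identity or more, and reads with several matching places may have been dropped, so that the level of Tdg is uncertain and is not set against the other genes.

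The start of Tet2 stood out among the members by its CpG content, and is printed with its CG pairs in capitals (GRCm38.p6, chr3:133544391-133544490, minus strand, the 100 bases before the RefSeq start, with 20 CpG). A second stretch shows the Tet2 match to GGTCTCTAA, the Prdm14 consensus, which was searched on both strands (NCBIM37, chr3:133167469-133167497, minus strand, with the match in capitals).
Tet2 start: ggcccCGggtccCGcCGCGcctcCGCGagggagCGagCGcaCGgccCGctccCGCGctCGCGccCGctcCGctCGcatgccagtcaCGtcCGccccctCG
Tet2 motif match: gaggccttatGGTCTCTAAttttcttcaa
The 250 bases before the Tet2 start had 51 CpG, and 0.067% of all windows had as many. None of the 16 RefSeq start windows of the members, of 250 bases before to 50 after a start, held GGTCTCTAA, which 0.256% of all windows held. Within 50 kb of the gene start there were 2 matches for Dnmt1, 1 for Uhrf1 and 1 for Tet2, which lies 39871 bases inside the gene and outside its exons. The other 6 members had 0, and 51.8% of all genes had at least 1. A match is a run of letters and not a measured binding site, and the lack of one does not show that binding is absent. The consensus was taken from general knowledge and not from the motif search of the study. By ChIP-seq, the study reports Mtgr1 bound near Dnmt3b, a locus that it counts among the known repressed targets of Prdm14.

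**Figure D1:**
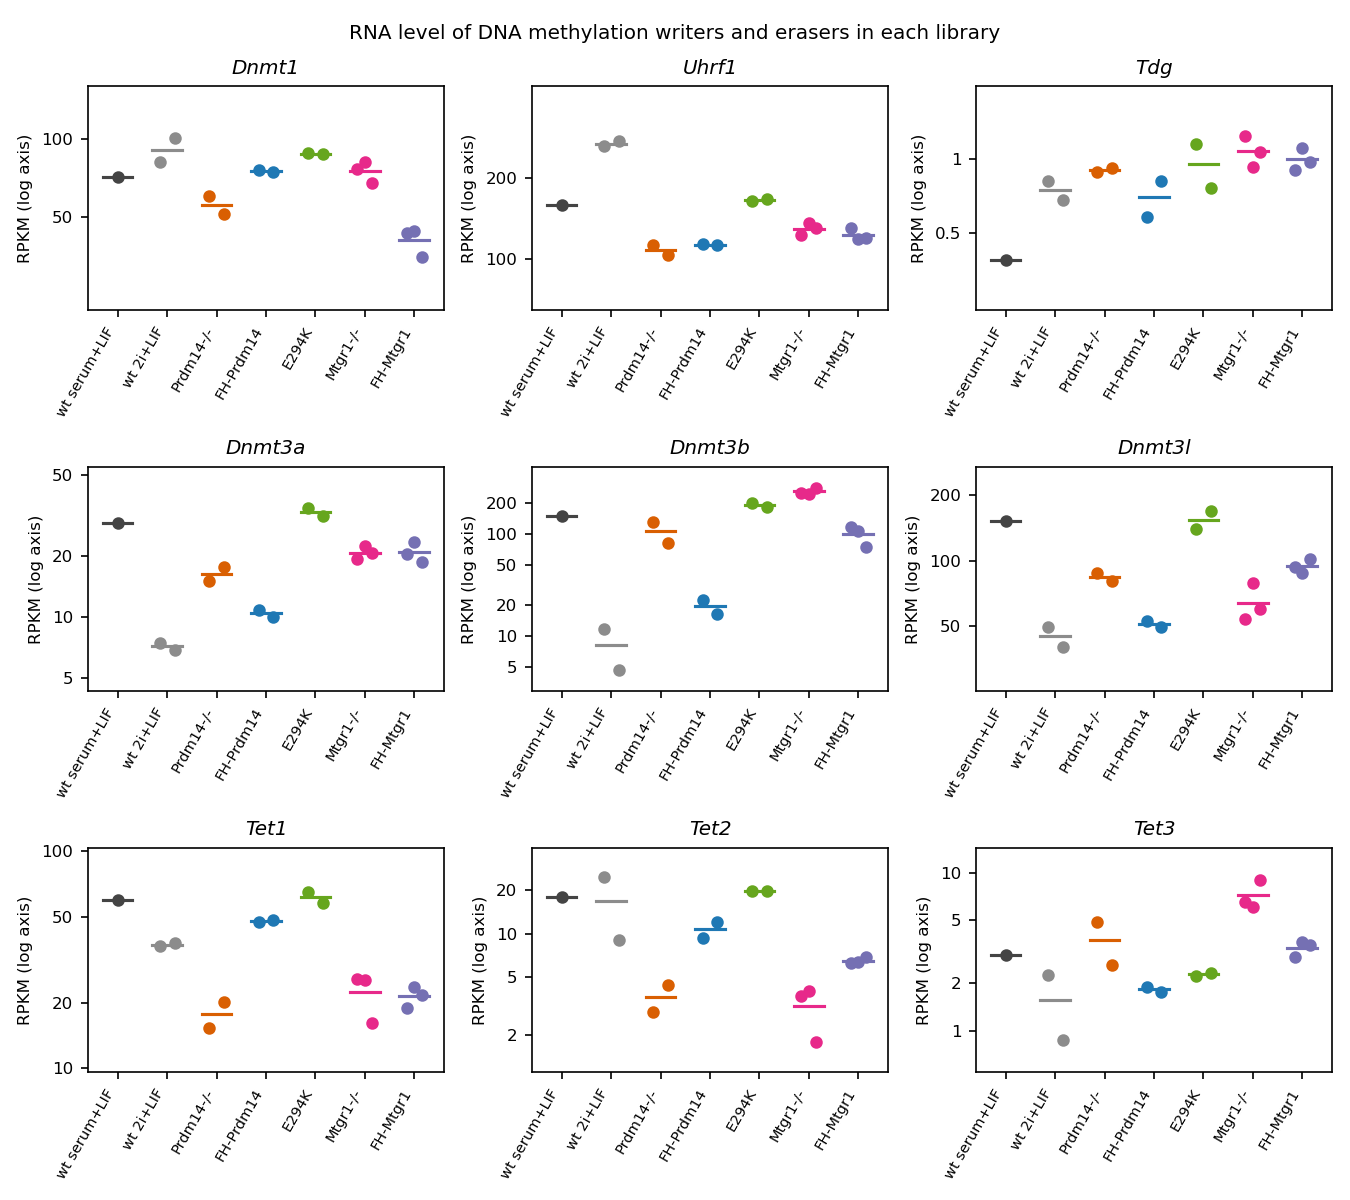
RPKM (log axis) of the 9 genes in each of the 15 libraries, by condition, with a bar at the condition mean. Dnmt3b spans 4.71 to 279 RPKM, with 2i+LIF and FH-Prdm14 at the bottom and Mtgr1-/- at the top, whereas Uhrf1 stays between 103 and 275.

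Loss of Mtgr1 was compared with the same clones after Mtgr1 was added back. Dnmt3b, Dnmt1 and Tet3 were higher without Mtgr1, and Dnmt3l and Tet2 lower, on limma with Benjamini-Hochberg adjustment over all tested genes. These 5 of 9 members stand against 52.3% of all tested genes past the same threshold (26.2% higher and 26.1% lower), a share close to that background. Dnmt3b was at 258 ± 18 RPKM (SD, n = 3) in Mtgr1-/- and 99.5 ± 21.9 (n = 3) in FH-Mtgr1 cells, 2.59-fold higher (log2 difference 1.39, SE 0.28, adjusted p = 0.00139). Dnmt1 was at 75.4 ± 6.96 and 40.7 ± 5.17 RPKM, 1.85-fold higher (0.89, SE 0.13, adjusted p = 0.000148). Tet3 was 2.15-fold higher, at 7.18 ± 1.54 against 3.34 ± 0.376 RPKM (0.99, SE 0.26, adjusted p = 0.00696). Among the writers, only Dnmt3l was called lower in this comparison, at 64.2 ± 13.1 against 94.3 ± 6.86 RPKM (-0.57, SE 0.15, adjusted p = 0.00645). Tet2 was at 3.18 ± 1.23 against 6.51 ± 0.327 RPKM (-0.99, SE 0.33, adjusted p = 0.0225).

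Without the Y-low libraries Mtgr1-/- A3 and FH-Mtgr1 C1, the log2 differences of Dnmt3b, Dnmt1, Tet3 and Dnmt3l were 1.48, 0.93, 1.10 and -0.50, all past the threshold (adjusted p = 0.0113, 0.00248, 0.0292 and 0.0436). Tet2 was no longer past it, at -1.14 (adjusted p = 0.0552). Its call was also lost without Mtgr1-/- C3 (-0.68, adjusted p = 0.0973) and without FH-Mtgr1 C3 (-0.96, adjusted p = 0.0626). Dnmt3a differed by 0.0025 on the log2 scale (SE 0.12, adjusted p = 0.989), Tet1 by 0.04 (SE 0.18, adjusted p = 0.864), Uhrf1 by 0.08 (SE 0.09, adjusted p = 0.488) and Tdg by 0.07 (SE 0.17, adjusted p = 0.732). Without the Y-low libraries these were 0.14 for Dnmt3a, -0.000435 for Tet1, 0.0919 for Uhrf1 and 0.0580 for Tdg, again not called. The de novo enzymes and their cofactor therefore did not move as a block when Mtgr1 was lost: 1 rose, 1 fell and 1 was not called.

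Loss of Prdm14 was compared with the clones given Prdm14 in excess of the wt level. Dnmt3a, Dnmt3b and Dnmt3l were all higher in Prdm14-/- cells, and Tet1 and Tet2 lower, 5 of 9 members against 25.2% of all tested genes (11.4% higher and 13.8% lower). Dnmt3b was 5.40-fold higher, at 106 ± 34.9 RPKM (n = 2) against 19.7 ± 4.38 (n = 2), with a log2 difference of 2.38 (SE 0.35, adjusted p = 0.000446). Tet1 was at 17.8 ± 3.44 against 47.9 ± 0.658 RPKM, 0.372 of the rescue level (-1.41, SE 0.21, adjusted p = 0.000588). Both of these calls were kept whichever of the 15 libraries was left out. Dnmt3a was 1.58-fold higher (0.63, SE 0.15, adjusted p = 0.00876), Dnmt3l 1.64-fold higher (0.71, SE 0.18, adjusted p = 0.0129) and Tet2 at 0.338 of the rescue level (-1.46, SE 0.40, adjusted p = 0.0190).

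The last 3 calls were lost when some of the 4 libraries were left out, at log2 differences of the same sign and of 0.51 or more in size. Over all genes, 1706, 1778 and 1679 calls were left without Prdm14-/- G6, FH-Prdm14 G6 and FH-Prdm14 F10, of 3390 with all libraries. Dnmt3a lost its call without Prdm14-/- F10 (0.51, adjusted p = 0.0570) or FH-Prdm14 F10 (0.58, adjusted p = 0.0787). Dnmt3l lost it without Prdm14-/- G6 (0.65, adjusted p = 0.0907), FH-Prdm14 G6 (0.75, adjusted p = 0.0556) or FH-Prdm14 F10 (0.66, adjusted p = 0.0925). Without the same libraries Tet2 was at -1.19, -1.63 and -1.29 (adjusted p = 0.160, 0.0560 and 0.127). Tet3 was at 3.73 ± 1.57 against 1.83 ± 0.0959 RPKM and Dnmt1 at 55.8 ± 6.30 against 75.4 ± 0.818, and neither passed (adjusted p = 0.0833 and 0.0628). Both passed without either 2i+LIF library (Tet3 adjusted p = 0.0269 and 0.0266, Dnmt1 0.0373 without either), Tet3 also without Prdm14-/- F10 (1.20, adjusted p = 0.0335), and Dnmt1 without Mtgr1-/- C3 or FH-Mtgr1 C3 (adjusted p = 0.0491 and 0.0415). For Uhrf1 and Tdg the log2 differences were -0.07 (SE 0.11) and 0.23 (SE 0.20).

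Markers of cell state moved in the same comparison, where 25.2% of all tested genes passed (11.4% higher and 13.8% lower). The 5 naive-state genes (Esrrb, Zfp42, Tbx3, Klf4 and Klf2) were all lower in Prdm14-/- than FH-Prdm14 cells and summed to 202 to 293 against 869 to 897 RPKM. The 4 markers of post-implantation epiblast (Fgf5, Pou3f1, Otx2 and Wnt8a) were all higher, at 183 to 186 against 25.8 to 31.0 RPKM. In Mtgr1-/- against FH-Mtgr1 cells 52.3% of all tested genes passed (26.2% higher and 26.1% lower). There, 2 of 5 naive genes were lower (109.7 to 164 against 178 to 190.3 RPKM), and 2 of 4 epiblast genes higher and 1 lower (109.8, 114 and 214 against 87.4 to 94.9). On lists this short, such counts are near that background. Of 3 tested trophoblast genes, 2 rose without Mtgr1 (sum of the list of 5, 21.5 to 24.3 against 8.83 to 10.6 RPKM), and 2 of the 3 were also higher in Prdm14-/- than FH-Prdm14 cells (11.7 to 15.2 against 8.56 to 11.2 RPKM). The fibroblast list of 6 summed to 7.48, 7.12 and 22.2 RPKM in Mtgr1-/- and to 1.18 to 3.26 in FH-Mtgr1 cells, with both tested collagen genes higher, so that clone C3 held the top of both the epiblast and the fibroblast sums. In Prdm14-/- cells it summed to 5.84 to 10.0 against 1.69 to 2.39 RPKM in FH-Prdm14 cells, with 1 of the 2 collagen genes higher. The highest values of the other listed genes in any library were 1.61 RPKM for Twist2, 0.619 for Col3a1, 0.296 for Dcn and 0.0533 for Lum. Of 4 tested extraembryonic endoderm genes, 2 were higher without Prdm14 (sum of the list of 5, 8.55 to 19 against 3.86 to 4.99 RPKM) and 2 lower without Mtgr1 (6.77 to 9.72 against 10.8 to 16.0 RPKM). The part of these shifts in the changes of the methylation genes was not tested, and in bulk RNA fewer cells of a type and less RNA per cell cannot be told apart.

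The E294K mutant was set against wt Prdm14 in the same clones, at similar Prdm14 RNA levels (log2 difference 0.01, SE 0.38). Here 4 of 9 members passed against 19.5% of all tested genes, all of them higher with the mutant, against 6.35% of tested genes higher and 13.2% lower. They were the whole de novo group and Uhrf1. Dnmt3b was 9.66-fold higher, at 189.9 ± 10.9 against 19.7 ± 4.38 RPKM (n = 2 each, log2 difference 3.26, SE 0.35, adjusted p = 9.93e-05). Dnmt3a was 3.18-fold higher (1.62, SE 0.15, adjusted p = 6.16e-05) and Dnmt3l 3.01-fold (1.57, SE 0.18, adjusted p = 0.000167). These 3 calls were kept whichever of the 15 libraries was left out. Uhrf1 was 1.47-fold higher (0.55, SE 0.11, adjusted p = 0.00540), and without FH-Prdm14 G6, E294K F10 or E294K G6 it was at 0.56, 0.57 and 0.54 and missed the threshold (adjusted p = 0.0522, 0.0512 and 0.0553).

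The erasers were not called, with differences of 0.35 for Tet1 (SE 0.21, adjusted p = 0.264), 0.85 for Tet2 (SE 0.40, adjusted p = 0.153) and 0.25 for Tet3 (SE 0.32, adjusted p = 0.605). Without either 2i+LIF library Tet2 passed (adjusted p = 0.0484 and 0.0480). Dnmt1 differed by 0.22 (SE 0.16) and Tdg by 0.28 (SE 0.20). With E294K and FH-Prdm14 alone in the fit, Tet1, Tet2 and Dnmt1 were called higher as well (adjusted p = 0.0119, 0.00484 and 0.0143). In that fit 7214 genes passed, against 2633 in the main fit. Of the naive genes 4 of 5 were lower with the mutant (496 to 549.9 against 869 to 897 RPKM) and of the epiblast genes 3 of 4 higher (111 to 117 against 25.8 to 31.0). Over all tested genes 13.2% were lower and 6.35% higher. The part of these markers was not tested. Since E294K and Prdm14-/- cells were both set against the FH-Prdm14 libraries, the sizes of the 2 comparisons share those libraries.

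**Figure D2:**
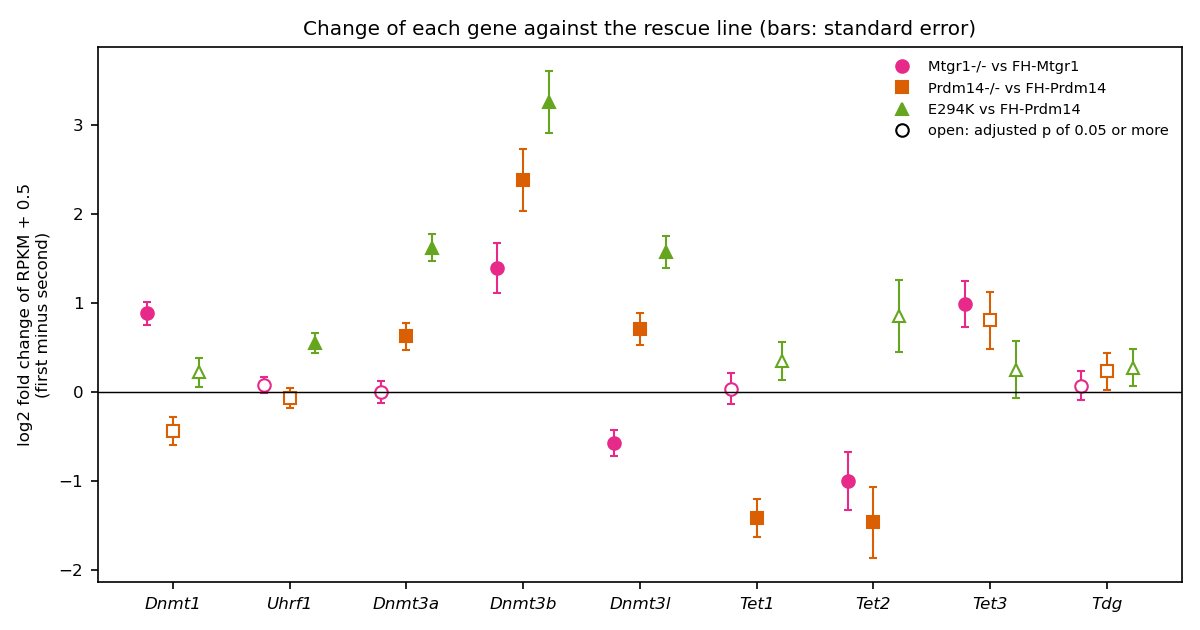
Log2 difference of RPKM + 0.5 (vertical axis, points, with bars of 1 SE) of each of the 9 genes in Mtgr1-/- against FH-Mtgr1, Prdm14-/- against FH-Prdm14 and E294K against FH-Prdm14. Open points missed the threshold: Dnmt3b is past it and above 0 in all 3, Dnmt3l below 0 for Mtgr1-/- and above 0 for the other 2, and Tet1 below 0 for Prdm14-/-.

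What the mutant did in cells without Prdm14 was read from E294K against Prdm14-/- cells. There, 6 of 9 members were higher in E294K cells and 0 lower, against 32.9% of all tested genes in either direction (15.1% higher and 17.8% lower). Tet2 was 5.42-fold higher (log2 difference 2.31, SE 0.40, adjusted p = 0.00174) and Tet1 3.44-fold (1.77, SE 0.21, adjusted p = 0.000264). The E294K mutant thus went with Tet1 and Tet2 levels near those of wt serum+LIF. Dnmt3a was 2.02-fold higher (1.00, SE 0.15, adjusted p = 0.000803), Dnmt3l 1.84-fold (0.87, SE 0.18, adjusted p = 0.00451), Uhrf1 1.54-fold (0.62, SE 0.11, adjusted p = 0.00231) and Dnmt1 1.58-fold (0.66, SE 0.16, adjusted p = 0.00942). The Dnmt1 call was lost without Prdm14-/- F10 (0.54), E294K F10 (0.65) or E294K G6 (0.66), with adjusted p of 0.0523, 0.0625 and 0.0582, and the Dnmt3l call without E294K G6 (0.73, adjusted p = 0.0542). Dnmt3b was at 0.88 (SE 0.35, adjusted p = 0.0687), and passed without either 2i+LIF library (adjusted p = 0.0152 and 0.0151). Tet3 was at -0.55 (SE 0.32, adjusted p = 0.193) and Tdg at 0.04 (SE 0.20).

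Against the single wt serum+LIF library, 0 of 9 members differed in E294K cells on limma, where 0.0519% of all genes (7 of them) were called and 1993 had an unadjusted p under 0.05. The largest member differences were 0.70 for Tdg (SE 0.25, 1 member with an unadjusted p under 0.05) and 0.34 for Dnmt3b (SE 0.42). With E294K and wt serum+LIF alone in the fit, 2 members (Dnmt3b and Dnmt1) and 3425 genes were called, on the spread of 1 pair of libraries. In FH-Prdm14 cells 4 members were lower than in wt serum+LIF and 0 higher, against 12.5% of all genes (6.92% higher and 5.6% lower): Dnmt3b at 0.131 of the wt level (-2.91, SE 0.42, adjusted p = 0.00167), Dnmt3l at 0.337 (-1.56, SE 0.22, adjusted p = 0.00143), Dnmt3a at 0.359 (-1.44, SE 0.18, adjusted p = 0.000744) and Uhrf1 at 0.714 (-0.48, SE 0.14, adjusted p = 0.0404). The Uhrf1 call did not outlast leaving out FH-Prdm14 G6 (-0.49, adjusted p = 0.149) or F10 (-0.48, adjusted p = 0.139), the clone block (adjusted p = 0.0812) or median-of-ratios scaling (adjusted p = 0.0662). Leaving out an E294K library, or clone A3 or C1 of either Mtgr1 condition, also ended it at the same difference (adjusted p = 0.0521 to 0.0736).

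In Prdm14-/- cells 5 members were below wt serum+LIF, against 25.4% of all genes (11.7% higher and 13.7% lower): Tet2 (-2.18, SE 0.49, adjusted p = 0.0104), Tet1 (-1.73, SE 0.26, adjusted p = 0.00177), Dnmt3l (-0.85, SE 0.22, adjusted p = 0.0180), Dnmt3a (-0.81, SE 0.18, adjusted p = 0.0102) and Uhrf1 (-0.55, SE 0.14, adjusted p = 0.0161). Without Prdm14-/- G6 the calls of Dnmt3a (-0.69), Dnmt3l (-0.91) and Tet2 (-1.90) were lost (adjusted p = 0.0614, 0.0604 and 0.0680). Dnmt3b, which stood far above the overexpressing rescue, was at -0.53 (SE 0.42, adjusted p = 0.360) against wt cells. The direction thus differed by reference for part of the de novo group, since Dnmt3a and Dnmt3l were above FH-Prdm14 and below wt serum+LIF in the same Prdm14-/- libraries.

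Mtgr1-/- cells differed from wt serum+LIF in 6 members, against 37% of all genes (14.9% higher and 22.1% lower), where the median gene was at -0.11. Tet2 (-2.38, SE 0.46, adjusted p = 0.00209), Tet1 (-1.42, SE 0.25, adjusted p = 0.00109), Dnmt3l (-1.26, SE 0.21, adjusted p = 0.000807) and Dnmt3a (-0.47, SE 0.17, adjusted p = 0.0472) were lower. Tet3 (1.12, SE 0.37, adjusted p = 0.0314) and Tdg (0.82, SE 0.24, adjusted p = 0.0169) were higher, Tdg from 20 reads in the wt library. Dnmt1 was at 0.07 (SE 0.18) and was not called. Dnmt3b was at 0.78 (SE 0.40, adjusted p = 0.143), and passed without either 2i+LIF library (adjusted p = 0.0417 and 0.0416). The calls of Dnmt3a, Tet3 and Tdg were lost without the 2 Y-low libraries (-0.42, 1.17 and 0.75, with adjusted p of 0.102, 0.0601 and 0.0579). Dnmt3a missed the threshold also without A3 (-0.42), C1 (-0.52) or C3 (-0.47), and Tet3 without C3 (0.96). Both lost their calls with the parental clone as block (adjusted p = 0.0553 and 0.0525), and Dnmt3a with median-of-ratios scaling (-0.32, adjusted p = 0.127). Dnmt3a was also lost without any one of the FH-Prdm14 or E294K libraries or FH-Mtgr1 A3 (adjusted p = 0.0632 to 0.0702), and Tet3 with no filter on low values (adjusted p = 0.0561).

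For FH-Mtgr1 cells, 2 members were below wt serum+LIF, against 2.74% of all genes (1.03% higher and 1.71% lower): Dnmt1 (-0.81, SE 0.18, adjusted p = 0.0408) and Tet1 (-1.46, SE 0.25, adjusted p = 0.0176). The Dnmt1 call was lost without FH-Mtgr1 A3 (-0.86, adjusted p = 0.0764), C1 (-0.87, adjusted p = 0.0618) or C3 (-0.70, adjusted p = 0.0709), and that of Tet1 without A3 (-1.38, adjusted p = 0.0519). Dnmt1 was lost also with median-of-ratios scaling (-0.69, adjusted p = 0.0740) and without any one of the FH-Prdm14 and E294K libraries, Mtgr1-/- A3 or C1 (adjusted p = 0.0620 to 0.0772). Without either 2i+LIF library, Dnmt3l (-0.69, adjusted p = 0.0479 and 0.0478) and Tet2 (-1.39, adjusted p = 0.0297 and 0.0294) were called as well. With the clone as replicate block, 1 call was left, since Dnmt1 missed the threshold (adjusted p = 0.0666), and without the 2 Y-low libraries there was none (Dnmt1 -0.87, adjusted p = 0.0944, and Tet1 -1.53, adjusted p = 0.0651). The median gene was at -0.11 here.

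Between the media, Dnmt3b, Dnmt3a and Dnmt3l were lower in wt 2i+LIF than in wt serum+LIF cells, and Uhrf1 higher, 4 of 9 members against 22.9% of all tested genes (9.28% higher and 13.6% lower). Dnmt3b was at 0.0550 of the serum level (-4.23, SE 0.42, adjusted p = 6.70e-05), Dnmt3a at 0.246 (-1.95, SE 0.18, adjusted p = 3.85e-05) and Dnmt3l at 0.295 (-1.76, SE 0.22, adjusted p = 0.000324). Uhrf1 was 1.70-fold higher (0.76, SE 0.14, adjusted p = 0.00281). Tet1 was at -0.68 (SE 0.26, adjusted p = 0.0798, and 0.0189 without Mtgr1-/- C3), and Tet2 at -0.25 (SE 0.49), where 24.5 and 9.0 RPKM lay on either side of the serum value. Without 2i+LIF replicate 1, Tet3 was called lower (-1.34, adjusted p = 0.0168). With only the 3 wt libraries in the fit, none of the 4 was past the threshold (adjusted p = 0.263 to 0.497).

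FH-Prdm14 cells in serum were also set against wt 2i+LIF. Here 3 members passed, against 23.5% of all genes (15.5% higher and 7.97% lower). Uhrf1 was at 0.420 of the 2i+LIF level (-1.25, SE 0.11, adjusted p = 2.09e-05), with all 4 libraries apart (113 and 113 against 262 and 275 RPKM). Dnmt3b (1.32, SE 0.35, adjusted p = 0.0158) and Dnmt3a (0.51, SE 0.15, adjusted p = 0.0260) were higher in FH-Prdm14 cells. The Dnmt3b call was lost without 2i+LIF replicate 2 (0.70, adjusted p = 0.137) or FH-Prdm14 G6 (1.09, adjusted p = 0.135), and the Dnmt3a call without 2i+LIF replicate 2 (0.46), FH-Prdm14 G6 (0.46) or F10 (0.56), or with median-of-ratios scaling (0.39, adjusted p = 0.0565). Without 2i+LIF replicate 2, Tet2 was called lower (-1.16, adjusted p = 0.0450). Dnmt3l differed by 0.20 (SE 0.18, adjusted p = 0.454).

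Between the rescue lines, both in serum+LIF, 5 members passed, against 41.6% of all genes (26.2% higher and 15.4% lower). Relative to FH-Mtgr1, FH-Prdm14 cells had less Dnmt3b (-2.30, SE 0.32, adjusted p = 0.000202), Dnmt3a (-0.96, SE 0.14, adjusted p = 0.000241) and Dnmt3l (-0.87, SE 0.16, adjusted p = 0.00157). They had more Tet1 (1.14, SE 0.20, adjusted p = 0.000841) and Dnmt1 (0.89, SE 0.14, adjusted p = 0.000598). All 5 calls were kept in every alternative that was run. Tet3 (-0.71) passed without either 2i+LIF library or Prdm14-/- F10 (adjusted p = 0.0209, 0.0207 and 0.0497). The median gene was 0.11 higher on the same log2 scale.

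Set directly against each other, the knockouts differed in 3 members, against 35.4% of all genes (14.4% higher and 21.1% lower). Mtgr1-/- cells had more Dnmt3b (1.32, SE 0.32, adjusted p = 0.00730), Tet3 (0.90, SE 0.29, adjusted p = 0.0309) and Dnmt1 (0.43, SE 0.14, adjusted p = 0.0353) than Prdm14-/- cells. Without Prdm14-/- F10 none of the 3 was called (0.98, 0.51 and 0.32, with adjusted p of 0.0909, 0.290 and 0.218). Tet3 was lost also with the clone block (adjusted p = 0.0523) and without Mtgr1-/- A3 (0.95) or C3 (0.74), and Dnmt1 without A3 (0.42) or C1 (0.37). With no filter Tet3 missed the threshold (adjusted p = 0.0575), as did Dnmt1 without any one of the FH-Prdm14 and E294K libraries (adjusted p = 0.0529 to 0.0542). Without both Y-low libraries Dnmt3b alone was called. Tet1 (0.31, SE 0.20) and Tet2 (-0.21, SE 0.37), low in both knockouts, were not called. Tet1 was called without Mtgr1-/- C3 (0.53, adjusted p = 0.0158), Dnmt3l without C1 (-0.56, adjusted p = 0.0210) and Uhrf1 without either 2i+LIF library (0.27, adjusted p = 0.0414 and 0.0415).

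Whether the step from rescue to knockout differed between the proteins was tested as a difference of differences, in which 4 members passed against 31.4% of all genes (17.1% higher and 14.3% lower). Dnmt1 rose with loss of Mtgr1 and was lower, short of the threshold, with loss of Prdm14 (difference 1.32, SE 0.20, adjusted p = 0.000747). For Dnmt3l the directions were opposite and both past the threshold (difference -1.27, SE 0.23, adjusted p = 0.00189). Tet1 was lower in Prdm14-/- than in FH-Prdm14 cells and differed by near 0 between Mtgr1-/- and FH-Mtgr1 cells (1.45, SE 0.28, adjusted p = 0.00236). Against wt serum+LIF, Tet1 was low in both Mtgr1-/- (-1.42, SE 0.25) and FH-Mtgr1 cells (-1.46, SE 0.25). Dnmt3a differed by -0.63 (SE 0.19, adjusted p = 0.0268). Dnmt3b rose in both and the difference of -0.99 (SE 0.45) was not past the threshold (adjusted p = 0.110), though it was without either 2i+LIF library (adjusted p = 0.0281 and 0.0280). Without the Y-low libraries the differences were 1.37 for Dnmt1, -1.21 for Dnmt3l and 1.41 for Tet1, all called (adjusted p = 0.00549, 0.00959 and 0.0112), and -0.49 for Dnmt3a, not called (adjusted p = 0.120). FH-Prdm14 cells hold Prdm14 RNA above the wt level. Mtgr1 RNA in FH-Mtgr1 cells was below the 40.7 RPKM of the single wt serum+LIF library, short of the threshold (-0.60, SE 0.15). Against wt 2i+LIF it was at 0.18 (SE 0.12), not called. Mtgr1-/- cells also held RNA of this gene, so that its level does not measure the added protein. The amount of the added protein and its identity cannot be told apart here.

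The make-up of each family was read as a share of summed RPKM, which is per gene length. Dnmt3b held 75.2 ± 3.85% of the Dnmt3a, Dnmt3b and Dnmt3l total in Mtgr1-/- cells (n = 3) and 46.0 ± 6.66% in FH-Mtgr1 cells (n = 3), a difference of 29.3 points with no overlap. In 2i+LIF its share was 17.1% and 9.09%, and in FH-Prdm14 26.3% and 21.7%. It was 45.2% in wt serum+LIF, 56.1% and 45.2% in Prdm14-/- and 47.6% and 53.1% in E294K. Dnmt3l took the largest share in 2i+LIF, at 72.1% and 77.6%, and the smallest in Mtgr1-/- cells, at 16.6% to 22.8%. Tet2 held 9.41 ± 2.49% of the Tet total in Mtgr1-/- and 20.9 ± 1.81% in FH-Mtgr1 cells, 11.5 points less. Tet3 held 17.0% to 33.3% in Mtgr1-/- cells and 10.3% to 10.8% in FH-Mtgr1 cells. For either share the exact two-sided permutation test gave p = 0.1, the smallest that 3 against 3 libraries allow. By reads, without gene length, the differences were 26.7 and -8.38 points, and without the Y-low libraries 29.7 and -12.9 points of summed RPKM.

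**Figure D3:**
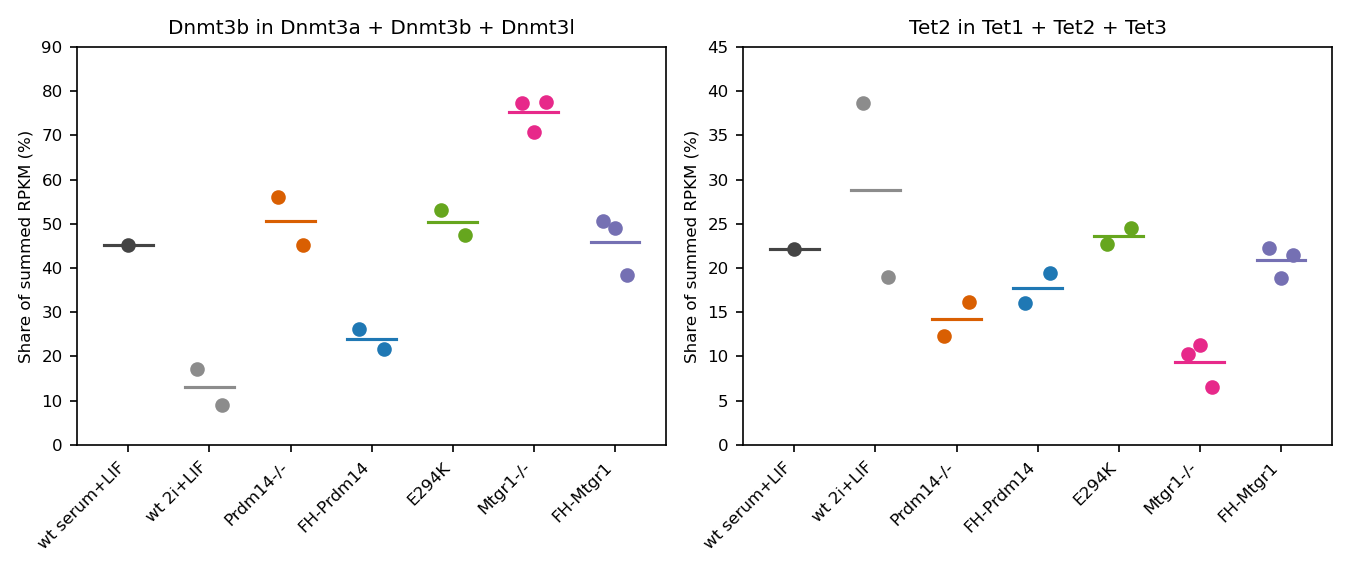
Share (%) of Dnmt3b in the summed RPKM of Dnmt3a, Dnmt3b and Dnmt3l, and of Tet2 in that of Tet1, Tet2 and Tet3, in each library, with a bar at the condition mean. Dnmt3b is at 70.8% to 77.6% in Mtgr1-/- and at 9.09% and 17.1% in wt 2i+LIF, and Tet2 is lowest in Mtgr1-/-, at 6.59% to 11.3%.

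The rest of the pathway was read from 3 lists of 42 genes, of which 40 were tested. In Mtgr1-/- against FH-Mtgr1 cells 13 were higher and 11 lower, in Prdm14-/- against FH-Prdm14 cells 2 and 2, and in E294K against FH-Prdm14 cells 4 and 3. Over all tested genes 52.3%, 25.2% and 19.5% passed in these comparisons, so that the 24, 4 and 7 of 40 were near or below the background. Of the 17 cofactors and readers, 8 were higher and 2 lower without Mtgr1 (median 0.41, against -0.01 over all tested genes, of which 26.2% were higher and 26.1% lower). Among them was Mbd2, a binder of methylated DNA (1.05, SE 0.15, adjusted p = 0.000138), at 18.5, 19.7 and 29.4 RPKM without and 10.8, 10.6 and 9.68 with Mtgr1. With E294K, 3 of these 17 were higher and 1 lower than with wt Prdm14. Hells, a remodeller needed for methylation of repeats, was higher (1.11, SE 0.29, adjusted p = 0.0196), and Dppa3, which keeps Uhrf1 from chromatin and is the Stella of the reporter, was lower (-1.31, SE 0.35, adjusted p = 0.0219). The reporter holds exon 1 and part of exon 2 of Stella, so that reads of the reporter may be counted for Dppa3.

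Of the 15 tested repair and demethylation partners, 3 were higher and 7 lower in Mtgr1-/- than in FH-Mtgr1 cells (median -0.40), with the same 26.2% and 26.1% over all tested genes. Neil2, a glycosylase that can stand behind Tdg in repair, was at 2.76, 2.72 and 2.12 against 16.1, 12.7 and 16.7 RPKM (-2.36, SE 0.25, adjusted p = 1.51e-05). In Prdm14-/- against FH-Prdm14 cells 1 of these 15 was higher and 1 lower, against 11.4% higher and 13.8% lower over all tested genes. Gadd45b, a stress-induced gene linked to demethylation, was at 123 and 92.0 against 18 and 18.6 RPKM (2.51, SE 0.42, adjusted p = 0.00109), and the cytidine deaminase Apobec1 was lower (-1.16, SE 0.17, adjusted p = 0.000438). Apobec1 was lower also without Mtgr1 (-1.34, SE 0.14, adjusted p = 1.45e-05). Of the 8 genes of methyl donor and ketoglutarate supply, 2 were higher and 2 lower without Mtgr1. Mat2a, which makes the methyl donor S-adenosylmethionine, was higher (1.39, SE 0.17, adjusted p = 4.66e-05), and Gnmt, which uses it up, was lower (-1.93, SE 0.21, adjusted p = 1.84e-05). With loss of Prdm14, 0 of these 8 were called (limma), against 25.2% of all tested genes.

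Germline genes known to be silenced by promoter methylation were read as well, since they are textbook targets of these enzymes, though no methylation was measured. Of 12 tested, 10 fell and 0 rose with loss of Mtgr1 relative to FH-Mtgr1 cells (median -1.03), 6 lower in Prdm14-/- and 4 lower in E294K than in FH-Prdm14 cells. Lower calls made up 26.1%, 13.8% and 13.2% of all tested genes in these comparisons. Mael, a piRNA factor, was at 6.83, 8.48 and 5.37 RPKM in Mtgr1-/- and 47.5, 42.1 and 55.3 in FH-Mtgr1 cells (-2.74, SE 0.17, adjusted p = 1.13e-06), and Sycp3, a protein of the meiotic chromosome axis, at 2.64, 2.37 and 1.10 against 17.1, 17.2 and 28.7 (-3.10, SE 0.28, adjusted p = 5.93e-06). In wt 2i+LIF cells 8 of the 12 were lower than in the single wt serum+LIF library (13.6% of all tested genes) and 1 higher, Dazl (2.38, SE 0.26, adjusted p = 0.000147). With only the wt libraries in the fit, 0 of all tested genes were called. The part of the methylation genes in these levels was not tested. The summed level of the 14 listed genes was 19.6 to 33.6 RPKM in Mtgr1-/-, 37.8 to 45.2 in 2i+LIF, 47.9 to 61.9 in Prdm14-/-, 62.4 to 74.6 in E294K, 79.8 to 91.2 in FH-Prdm14, 105 to 128 in FH-Mtgr1 and 127 in wt serum+LIF cells.

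**Figure D4:**
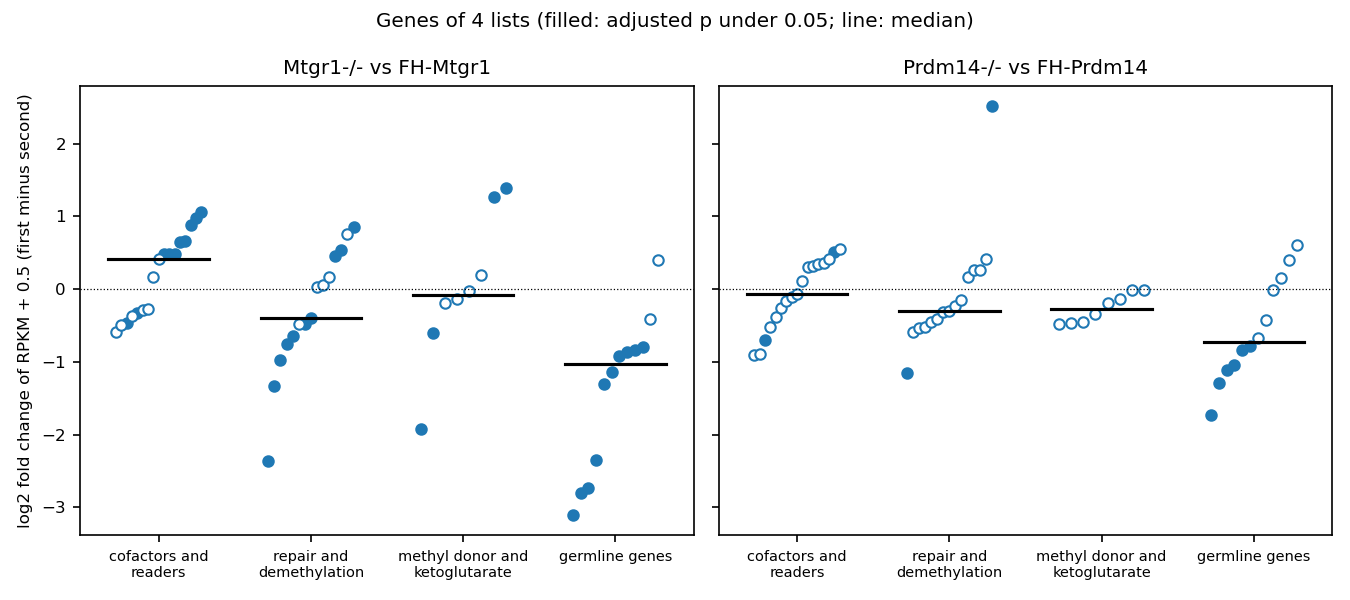
Log2 difference of each tested gene of the 4 lists (points, filled where past the threshold, with a line at the list median) in Mtgr1-/- against FH-Mtgr1 and Prdm14-/- against FH-Prdm14. Without Mtgr1 the median of cofactors and readers is at 0.41 and that of germline genes at -1.03.

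Genes whose log2 levels ran most like each member over the 15 libraries were sought among 8589 others with a mean of at least 5 RPKM (8590 for Tet3 and Tdg). For Dnmt3b these were Id1 (r = 0.952), a target of BMP signalling, and Grhl2 (r = 0.948), an epithelial transcription factor. Dnmt3a had Jmjd1c and Cgnl1 (both r = 0.940), and Dnmt3l had Rbpms2 (r = 0.925) and the epiblast factor Otx2 (r = 0.872). Tet1 ran with Dnajc21 (r = 0.973) and Ivns1abp (r = 0.957), Tet2 with the replication factor Mcm10 (r = 0.957) and Hsd17b14 (r = 0.946), and Tet3 with Lmo4 (r = 0.972) and Camsap2 (r = 0.964). For Dnmt1 they were Cltb and Hk2 (both r = 0.912), for Uhrf1 Fads1 (r = 0.935) and Clcn6 (r = 0.904), and for Tdg Rhno1 (r = 0.769) and Myeov2 (r = 0.753). These are descriptions over libraries that share conditions.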

How the data were processed

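RNA purified with oligo-dT was sequenced in 15 libraries. ChIP-seq samples (11) were left out, as they hold no RNA levels. The authors aligned reads with Tophat to mm9, counted them with HTSeq on RefSeq genes and deposited RPKM values with gene lengths. RPKM times length over the smallest step of a library gave whole reads within 0.01 for 100% of values, and these gave the depth. Values were taken as log2(RPKM + 0.5), which understates the change of low genes. All 15 libraries entered 1 model with a mean per condition, fitted by lmFit, contrasts.fit and eBayes with trend (limma version 3.58.1, run under R version 4.3.3), two-sided, with Benjamini-Hochberg adjustment over 13477 genes and a threshold of 0.05, after a test on simulated data. Python 3.11.15 made the tables. Members and lists were chosen with earlier results of these data known. Named beside the members are pathway genes past the threshold with an absolute log2 difference of at least 1, the 2 genes most like each member, and the targeted genes.

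Clone names pair knockouts with rescues. Deviations of same-named clones from their condition means correlated at 0.299 for Prdm14-/- with FH-Prdm14, 0.0405 for Prdm14-/- with E294K, 0.0797 for E294K with FH-Prdm14, and 0.0633, -0.182 and 0.0278 for A3, C1 and C3 of Mtgr1-/- with FH-Mtgr1. Unlike-named Mtgr1 pairs gave -0.104 to 0.105, highest for Mtgr1-/- C1 with FH-Mtgr1 A3, and Mtgr1-/- A3 with FH-Mtgr1 C1 gave 0.0660. Since Y-linked RNA also goes against these names, the clone block rests on names whose exchange was not tested. Main fits have no block. Alternatives were pseudocounts of 0.1 and 1, no filter, median-of-ratios scaling, voom on the recovered reads, only the compared conditions, the clone as replicate block, GC adjustment, and leaving out each library. Comparisons with wt serum+LIF were not refitted without its only library. Leaving out both Y-low libraries was chosen after seeing the data. Positions come from NCBIM37, start windows from RefSeq on GRCm38.p6.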

Additional observations from a re-analysis of the deposited data

Results flagged for a closer look

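The change from rescue to knockout differed between Mtgr1 and Prdm14 for 4 of the 9 genes, by a test of the difference itself in limma. The log2 change of Dnmt1 was 1.32 greater with loss of Mtgr1 than with loss of Prdm14, and that of Tet1 1.45 greater. For Dnmt3l and Dnmt3a it was smaller, with differences of -1.27 and -0.63. The Dnmt3a difference was lost without Prdm14-/- F10 (-0.51), FH-Prdm14 G6 (-0.68) or F10 (-0.57), Mtgr1-/- A3 (-0.58) or FH-Mtgr1 C1 (-0.54), and without both Y-low libraries (-0.49), with adjusted p of 0.0590 to 0.120.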

How the results depend on the processing

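Of the 117 tests of members in 13 comparisons, 56 passed the threshold. Of these, 29 passed under every alternative run and 0 changed direction. Of the 61 others, 13 changed sign under an alternative.

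Members called changed most where a condition had few libraries. When the fit held the compared conditions alone, 7 were called for E294K against FH-Prdm14, 2 for Prdm14-/- against wt serum+LIF, 1 for FH-Prdm14 against 2i+LIF, 1 for Mtgr1-/- against Prdm14-/-, and 0 for 2i+LIF and for FH-Mtgr1 against wt serum+LIF. Over all 13477 tested genes, those fits called 7214, 625, 626, 3548, 0 and 0 in the same order. The main fits called 2633, 3423, 3163, 4776, 3084 and 369. For FH-Mtgr1 against wt serum+LIF scaling gave 1, the replicate block 1 and GC adjustment 4. For Mtgr1-/- against Prdm14-/- scaling, GC adjustment and GC adjustment with the replicate block each gave 5. Without both Y-low libraries these comparisons gave 0 and 1, and Mtgr1-/- against wt serum+LIF gave 3. Leaving out any 1 of the 15 libraries gave 2 to 7 for Prdm14-/- against FH-Prdm14, 2 to 5 for Prdm14-/- against wt serum+LIF, 0 to 4 for FH-Mtgr1 against wt serum+LIF, 1 to 3 for FH-Prdm14 against 2i+LIF and 0 to 4 for Mtgr1-/- against Prdm14-/-. Comparisons with wt serum+LIF cannot be refitted without its only library, so that their ranges come from leaving out the other libraries. The cause of the changed counts was not tested, beyond fewer libraries in those fits.

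Small differences turned sign. GC adjustment, with or without the replicate block, gave -0.00277 for Dnmt3a in Mtgr1-/- against FH-Mtgr1, -0.0781 for Tdg in E294K against Prdm14-/-, and -0.0671 for Dnmt1 and 0.0753 for Tet1 in FH-Prdm14 against wt serum+LIF. Scaling gave 0.00337 for Uhrf1 in Prdm14-/- against FH-Prdm14, and leaving out both Y-low libraries -0.000435 for Tet1 in Mtgr1-/- against FH-Mtgr1. With 1 library left out, Mtgr1-/- against FH-Mtgr1 ranged from -0.0726 to 0.0900 for Dnmt3a and -0.0734 to 0.26 for Tet1, and E294K against Prdm14-/- from -0.15 to 0.24 for Tdg. FH-Prdm14 against 2i+LIF ranged from -0.21 to 0.0800 for Tdg, -1.16 to 0.23 for Tet2 and -0.25 to 0.75 for Tet3. Tet2 ranged from -0.48 to 0.11 in Mtgr1-/- against Prdm14-/- and from -0.95 to 0.45 in 2i+LIF against serum+LIF. Tet3 ranged from -0.17 to 0.61 in Prdm14-/- against wt serum+LIF and from -0.21 to 0.57 in the difference of differences.

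The replicate block moved the count of all genes called for FH-Mtgr1 against wt serum+LIF from 369 to 39. It took 1 member call from that comparison, 2 from Mtgr1-/- against wt serum+LIF and 1 each from FH-Prdm14 against wt serum+LIF and Mtgr1-/- against Prdm14-/-, and changed no other. Apart from leaving out 1 library, the alternatives gave 0 to 639 there, 1955 to 7214 for E294K against FH-Prdm14 (2633 with all libraries) and 808 to 5058 for FH-Prdm14 against wt serum+LIF (1687). Without 1 library of the compared conditions the counts were 18 to 184, 869 to 1142 and 399 to 501. Without 1 library of another condition, which changes the shared error and no difference, they were 98 to 1280, 2289 to 3757 and 1137 to 3175, highest without a 2i+LIF library (1273 and 1280, 3751 and 3757, 3175 and 3170). With 20 to 82 reads, Tdg changes are at the limit of depth.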
